A study of Rattus norvegicus with 5 samples.

Results

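The genes described here are 44 genes of DNA double-strand break repair and its neighbouring repair routes, taken by symbol from a list, with no threshold on any measured value. All 44 were found among the 30017 gene symbols of the deposited count tables. They were set in 6 groups by role. Of these genes, 8 were of damage signalling, 4 of end resection and 12 of homologous recombination. A further 7 were of non-homologous end joining, called end joining below, and 8 of base excision and single-strand break repair. The other 5 had parts in several routes, among them Polq of microhomology-mediated end joining. Their unique molecular identifier (UMI) counts were summed over the cells of each skin cell type in each library and expressed per 1000000 UMIs of those cells (CPM).

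The data are 5 droplet-based single-cell RNA sequencing libraries of the skin of male Sprague-Dawley (SD) rats, obtained at 4 weeks of age per the methods of the study. One library came from control skin without radiation, and 1 each from skin taken 7, 14, 28 and 60 d after irradiation. Per the methods, a single electron-beam dose was given to the shaved buttock. The methods also describe a sort that excluded dead cells by propidium iodide, in a section that does not name the rat skin. Whether cells that died of the damage were left out of these libraries is therefore not known here. The 60 d library is labelled as irradiated skin, but the study's text does not describe it, so its dose and experiment are not known here. The labels give no number of animals for a library and no dose. With 1 library per time, no irradiated library could be tested against control, and time after irradiation cannot be told apart from animal, dissociation or library. Those comparisons are given as values with exact 95% intervals that cover counting error only.

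A double-strand break is sensed by kinases and chromatin ligases, and is then repaired mainly by 2 routes. Non-homologous end joining seals the ends at any time in the cell cycle, whereas homologous recombination copies the sister chromatid and works in S and G2 phase, when many of its genes are transcribed. Base excision and single-strand break repair deal with oxidised bases and nicks, which ionising radiation makes in far larger number. In skin, dividing keratinocytes sit mainly in the basal layer and the hair follicle, and most dermal fibroblasts do not divide.

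The start regions of 4 members are shown as examples, as the results below compare dividing with non-dividing cells. Promoters of 250 bases before and 50 bases after the annotated start were taken from RefSeq on the GRCr8 build, whereas the counts were made on Rnor_6.0, so positions apply to GRCr8 only. Of the 44 members, 36 had an entry. Capitals mark letters of the motifs TTTCCCGC (an E2F site) and TTTGAA (a cell cycle homology region), searched on both strands together with TTTGGCGC (another E2F site). The first 3 genes rose in cycling keratinocytes, and Xrcc5 did not pass that test.
Bard1, chr9:80143706-80144005, minus strand: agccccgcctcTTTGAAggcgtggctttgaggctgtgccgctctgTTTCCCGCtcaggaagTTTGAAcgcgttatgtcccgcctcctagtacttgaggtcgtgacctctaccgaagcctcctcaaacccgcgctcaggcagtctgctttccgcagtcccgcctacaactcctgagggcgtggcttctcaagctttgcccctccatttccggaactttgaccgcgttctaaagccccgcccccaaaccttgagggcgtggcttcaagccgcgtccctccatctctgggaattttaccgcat
Fancd2, chr4:148234458-148234757, plus strand: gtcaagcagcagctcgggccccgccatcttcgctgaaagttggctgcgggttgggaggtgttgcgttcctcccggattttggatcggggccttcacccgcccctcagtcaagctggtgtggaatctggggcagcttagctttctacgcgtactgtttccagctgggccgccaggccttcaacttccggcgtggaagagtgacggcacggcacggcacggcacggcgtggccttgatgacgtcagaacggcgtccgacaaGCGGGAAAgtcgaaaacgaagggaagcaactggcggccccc
Polq, chr11:77281219-77281518, minus strand: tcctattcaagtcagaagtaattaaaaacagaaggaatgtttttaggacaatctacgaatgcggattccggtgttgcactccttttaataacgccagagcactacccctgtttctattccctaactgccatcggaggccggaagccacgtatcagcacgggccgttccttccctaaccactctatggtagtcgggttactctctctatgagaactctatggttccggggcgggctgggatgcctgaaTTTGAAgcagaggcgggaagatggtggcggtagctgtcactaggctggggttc
Xrcc5, chr9:81404257-81404556, plus strand: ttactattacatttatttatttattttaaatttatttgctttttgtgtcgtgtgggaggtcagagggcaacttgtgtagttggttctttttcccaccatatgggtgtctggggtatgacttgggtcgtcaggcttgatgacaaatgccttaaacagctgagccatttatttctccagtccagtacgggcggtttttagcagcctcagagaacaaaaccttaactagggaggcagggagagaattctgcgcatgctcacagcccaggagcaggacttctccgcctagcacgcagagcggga
TTTCCCGC was found in 6 of the 36 members' promoters and in 0.974% of all 33469 promoters in the table. The members were Atm, Chek1, Bard1, Rad51d, Fancd2 and Msh6. TTTGAA was found in 6 of the 36 (Rbbp8, Bard1, Rad51b, Rad51c, Xrcc1 and Polq) and in 18.4% of all promoters. TTTGGCGC was found in 0 of the 36 and in 0.493% of all promoters. Of the 22 promoters of members that rose in cycling keratinocytes, 5 held TTTCCCGC and 4 held TTTGAA. The 3 shown above each hold a motif, whereas most of the 22 held neither of the 2. Of the 10 promoters of tested members that neither rose nor fell, 1 held TTTCCCGC (Rad51d) and 1 held TTTGAA (Xrcc1). The share with TTTGAA among the 22 was near that of all promoters. In Bard1 the TTTCCCGC letters began 205 bases before the start, and in Fancd2 they lay on the opposite strand, from 9 bases after it. These are matches of letters only, and their absence says nothing about binding.

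The libraries held 6012 to 12239 barcodes and 70073362 to 139566348 UMIs. Barcodes with over 20% mitochondrial UMIs made up 6.40% to 25.5%, the most in the 14 d library, and libraries shared 11 to 41 barcodes per pair. After filtering, 4108 to 10626 cells were kept per library. Cell types were named keratinocyte-like, fibroblast-like and so on from marker genes and are called by the short name. Keratinocytes numbered 4523 in control, 1726 on day 7, 566 on day 14, 3138 on day 28 and 6102 on day 60, and fibroblasts 3380, 6689, 90, 754 and 691 in the same order. The 14 d fibroblast values therefore rest on 90 cells. A cluster high in the calprotectin gene S100a8 raised 10 of 12 keratinocyte markers and 2 of 7 neutrophil-list genes, so by its markers it was keratinocyte-like. The cluster was kept apart because S100a8 and S100a9, both of the neutrophil list, were among its leading genes. It held 1218 cells on day 14, more than the 566 keratinocytes used there, and 912 on day 28. Values with it added to the keratinocytes are given beside those results that it changed most.

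The 44 members together made up a small part of the transcriptome and differed little in sum between libraries. In keratinocytes their summed level was 477.9 CPM in control, 611.3 on day 7, 523.8 on day 14, 522.6 on day 28 and 563.8 on day 60. In fibroblasts it was 369.8, 404.4, 377.8, 483.2 and 452.6 CPM in the same order. The largest log2 ratios over control were 0.36 (95% interval 0.33 to 0.38) in keratinocytes on day 7 and 0.39 (0.31 to 0.46) in fibroblasts on day 28. In keratinocytes on days 14 and 28 the sum was above control by 0.13 on the log2 scale, but at -0.34 and -0.040 once the S100a8-high cluster was added. In the plot of summed levels by role, homologous recombination and base excision genes separated the cell types, and end resection genes did not. Cells without a proliferation gene were those of at least 2000 UMIs with no such gene detected after thinning to 2000 UMIs. In these cells, homologous recombination genes were at 14.1 to 19.7 CPM in keratinocytes and 8.999 to 16.4 CPM in fibroblasts, which overlap.

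**Figure D1:**
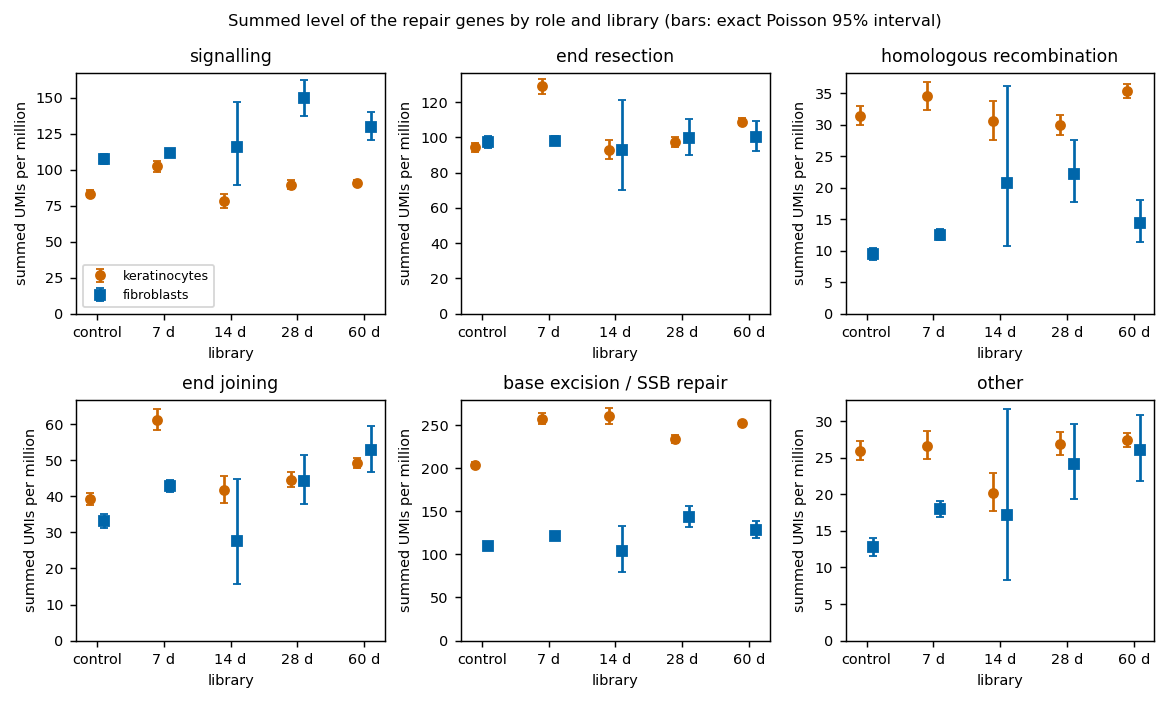
Summed level of the genes of each role (CPM, vertical axes starting at 0) in the control, 7 d, 14 d, 28 d and 60 d libraries, in keratinocytes (circles) and fibroblasts (squares), with exact Poisson 95% intervals. Base excision genes were at 203.4 to 260.1 CPM in keratinocytes and 103.5 to 143.2 CPM in fibroblasts.

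The first comparison asked which repair genes separate keratinocytes from fibroblasts, with both cell types of each of the 5 libraries and the library as a block (edgeR's quasi-likelihood test, Benjamini-Hochberg adjustment over 12926 genes, adjusted p at most 0.05). The 5 libraries differ in condition, so p-values measure how alike the cell-type difference was across them. Of 42 members tested, 25 were higher in keratinocytes and 3 were lower, and the median log2 difference was 0.64. Of all genes tested, 30.2% were higher and 29.5% lower. Xrcc3, with 11 UMIs in all kept cells, and Rad51b, with 103, were too low to test. Cells with a proliferation gene detected after thinning, and all cells under 2000 UMIs, were then left out of both cell types. With these left out, 12 members were higher and 2 lower of 38 tested, against 29.5% higher and 28.5% lower of all genes. The members' share of higher genes was then near that of all genes. Proliferation transcripts missed by the thinning can remain in this set. The cells under 2000 UMIs were 158 of 754 fibroblasts and 92 of 3138 keratinocytes on day 28. The part of proliferation alone in this change was therefore not tested. With the S100a8-high cluster added 24 were higher and 2 lower. Without the 28 d or without the 60 d library 1 member was lower.

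The second comparison asked which of these genes differ between cycling and non-cycling keratinocytes. Each cell was thinned to 2000 UMIs and called cycling with at least 3 of 23 proliferation genes detected, none of them a member, and non-cycling with 0. Cycling cells numbered 396 in control, 130 on day 7, 119 on day 14, 453 on day 28 and 671 on day 60. Of 42 members tested in the same way, 26 were higher in cycling cells and 3 lower, against 15.9% higher and 23.8% lower of all 11045 genes tested, and 26 were also higher with DESeq2. Cycling cells had a median of 11941 to 26640 UMIs and non-cycling cells 9787 to 18153, and 96.7% to 100% of cycling but 67.0% to 95.6% of non-cycling cells were in basal-gated cells. Within basal-gated keratinocytes alone, 25 members were higher and 1 lower, and with the S100a8-high cluster added 26 and 2.

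**Figure D2:**
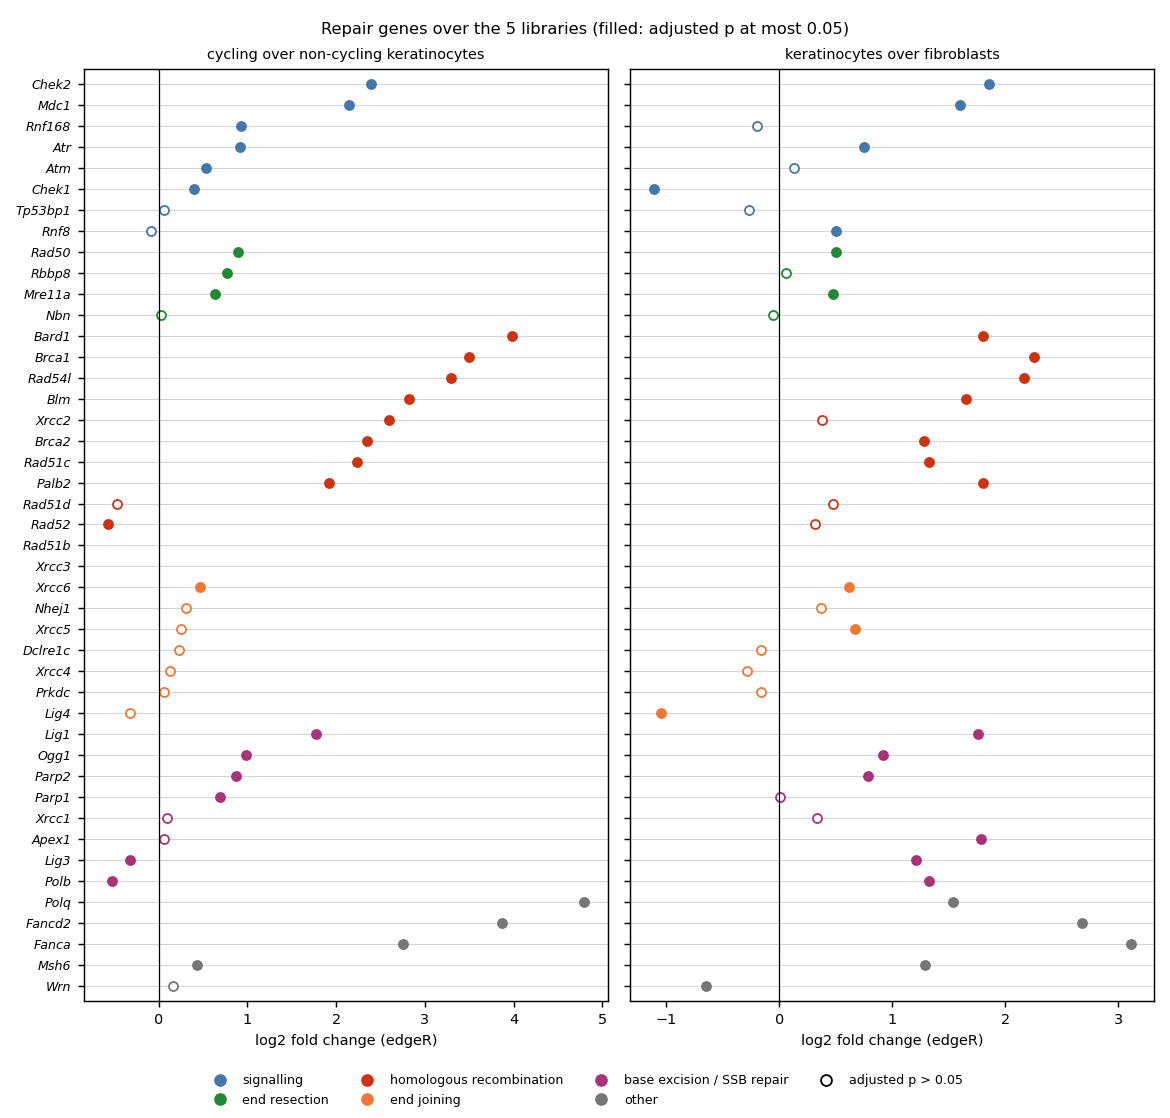
Log2 fold change (edgeR) of each of the 42 tested members, ordered by role, between cycling and non-cycling keratinocytes (left) and between keratinocytes and fibroblasts (right). Filled points have an adjusted p of at most 0.05. Homologous recombination genes reach 3.98 on the left, whereas the non-homologous end joining genes lie between -0.32 and 0.46. Polq, of microhomology-mediated end joining, is shown among the others and is at 4.79.

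Damage signalling genes were split between the cell types. Chek1, the checkpoint kinase that acts below Atr, was the one member of this group lower in keratinocytes. Chek1 stood at 26.7 CPM in control keratinocytes, 38.9 on day 7, 34.0 on day 14, 35.4 on day 28 and 34.4 on day 60. In fibroblasts Chek1 was at 73.8, 66.4, 74.2, 88.4 and 78.9 CPM in the same order. The ranges do not overlap, and the log2 difference was -1.11 (SE 0.16, edgeR adjusted p = 0.000467). Chek2, the kinase below Atm, went the other way, with 2.71 to 7.12 CPM in keratinocytes and 0.713 to 2.30 in fibroblasts (1.86, SE 0.21, edgeR adjusted p = 0.000129). Mdc1, the mediator that binds phosphorylated H2AX, was also higher in keratinocytes (1.59, SE 0.23, edgeR adjusted p = 0.000547), as were Atr (0.75), the kinase that responds to single-stranded DNA, and the ubiquitin ligase gene Rnf8 (0.50). Atr no longer passed without the 7 d (edgeR adjusted p = 0.0925) or the 28 d library (0.0728), nor did Rnf8 without control (0.0507), the 28 d (0.0844) or the 60 d library (0.0543). Atm, Tp53bp1 and Rnf168 did not pass the test.

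Atm, the kinase that responds to double-strand breaks, was at 11.5 CPM in control keratinocytes, 16.5 on day 7, 7.60 on day 14, 8.43 on day 28 and 11.4 on day 60. In fibroblasts Atm was at 8.63, 11.3, 6.90, 14.6 and 11.3 CPM. The groups overlapped throughout. Rnf8, which starts the ubiquitin signal at breaks, was at 12.2, 10.8, 8.34, 11.4 and 10.3 CPM in keratinocytes and 6.62, 8.96, 5.17, 10.1 and 8.06 CPM in fibroblasts. In cycling keratinocytes 6 of the 8 signalling genes rose. Chek2 was at 10.98 to 22.7 CPM in cycling and 1.60 to 3.63 in non-cycling cells, and rose by 2.40 on the log2 scale (SE 0.17, edgeR adjusted p = 3.54e-06). Mdc1 rose by 2.14, Rnf168 by 0.93, Atr by 0.92, Atm by 0.53 and Chek1 by 0.40. Tp53bp1, which holds back resection and favours end joining, had a log2 difference of 0.066, and Rnf8 one of -0.085.

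End resection genes were nearly level between the cell types in sum, at 93.0 to 129.1 CPM in keratinocytes and 93.1 to 100.5 in fibroblasts. Rbbp8, which encodes the resection factor CtIP, was at 36.8 CPM in control keratinocytes, 39.8 on day 7, 32.2 on day 14, 28.1 on day 28 and 31.9 on day 60. In fibroblasts Rbbp8 was at 51.1, 36.6, 41.4, 26.2 and 21.5 CPM, so it lay above the keratinocytes in control and below them on days 28 and 60. Rad50, of the MRN complex that holds the ends, was at 29.2, 40.6, 29.8, 38.9 and 42.7 CPM in keratinocytes and 18.0, 28.0, 17.2, 36.0 and 38.0 CPM in fibroblasts. Rad50 was higher in keratinocytes in each library (log2 difference 0.50, SE 0.14, edgeR adjusted p = 0.0136). Nbn, the third subunit of MRN, was at 22.2, 37.7, 24.2, 24.3 and 26.4 CPM in keratinocytes and 24.3, 28.1, 29.3, 31.2 and 33.2 CPM in fibroblasts and did not pass (-0.057). Rbbp8 did not pass either (0.063). Mre11a, the nuclease of the complex, was higher in keratinocytes by 0.47 (SE 0.18, edgeR adjusted p = 0.0494), and no longer passed without control (0.0536), the 7 d (0.184) or the 28 d library (0.0669), and lost the call in 7 of 13 alternatives in all. In cycling keratinocytes Rad50 rose by 0.89, Rbbp8 by 0.77 and Mre11a by 0.64, and Nbn differed by 0.023 without passing.

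Homologous recombination genes were mostly higher in cycling cells. Of 10 tested, 8 rose in cycling keratinocytes and 1 fell, with a median log2 difference of 2.47. Their summed level was 105.4 CPM in cycling and 14.3 in non-cycling cells of the control library, 113.0 and 19.7 on day 7, 54.5 and 14.1 on day 14, 71.6 and 15.4 on day 28, and 106.0 and 17.9 on day 60. The cycling values lay above all non-cycling values, with the lowest on day 14. Over all keratinocytes the sum was 29.9 to 35.3 CPM, and in fibroblasts 9.43 to 22.2 CPM.

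Brca2, a mediator of strand exchange, was at 15.8 CPM in cycling cells of control, 22.0 on day 7, 11.3 on day 14, 15.9 on day 28 and 25.3 on day 60. Non-cycling cells had 2.23, 3.75, 1.30, 2.95 and 4.27 CPM of Brca2, a log2 difference of 2.35 (SE 0.12, edgeR adjusted p = 4.89e-07). Bard1, the partner of Brca1, was at 28.7, 24.8, 9.81, 11.6 and 19.6 CPM in cycling and 1.60, 0.901, 0.186, 1.19 and 0.825 CPM in non-cycling cells (3.98, SE 0.22, edgeR adjusted p = 6.93e-07). Brca1 itself was at 23.96, 23.8, 7.35, 12.045 and 18.8 CPM in cycling and 1.55, 1.90, 0.929, 0.958 and 1.28 CPM in non-cycling cells (3.50, SE 0.14, edgeR adjusted p = 1.37e-07). For Bard1 and Brca1 the cycling cells of the 14 d library had the lowest level. Those of control had the highest level of Bard1, whereas Brca1 was nearly level in control and on day 7. The translocase gene Rad54l rose by 3.29, the helicase gene Blm by 2.82, Xrcc2 by 2.59, Rad51c by 2.24 and Palb2, the bridge between Brca1 and Brca2, by 1.92. Rad52, an annealing factor, fell by 0.57 on the log2 scale (SE 0.19, edgeR adjusted p = 0.0353) and no longer passed without the 14 d (0.112), the 28 d (0.100) or the 60 d library (0.175), and Rad51d, which also acts in strand exchange, had a difference of -0.47 that did not pass (edgeR adjusted p = 0.0746).

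Between cell types 7 of the 10 tested homologous recombination genes were higher in keratinocytes and 0 lower with edgeR, 0 also at an unadjusted p of 0.05 and with DESeq2, and all 10 log2 differences were above 0. Brca1 was at 5.73, 5.27, 3.55, 3.91 and 4.79 CPM in keratinocytes and 0.795, 0.747, 5.17, 1.85 and 0.576 CPM in fibroblasts, where the 14 d value of 5.17 was 3 UMIs (log2 difference 2.25, SE 0.45, edgeR adjusted p = 0.00293). Bard1 was at 6.63, 4.10, 3.55, 3.79 and 4.24 CPM in keratinocytes and 1.08, 0.815, 6.90, 2.65 and 0.576 CPM in fibroblasts (1.80, SE 0.49, edgeR adjusted p = 0.0129). Brca2 was at 4.79, 6.52, 4.87, 6.65 and 8.50 CPM in keratinocytes and 1.65, 2.72, 3.45, 4.24 and 2.69 CPM in fibroblasts (1.28, SE 0.24, edgeR adjusted p = 0.00224). Rad54l (2.16), Palb2 (1.80), Blm (1.65) and Rad51c (1.33) were higher in keratinocytes too, and Rad51d (0.47), Xrcc2 (0.37) and Rad52 (0.32) did not pass. Bard1 without control (edgeR adjusted p = 0.0501) and Rad51c without the 7 d library (0.0659) no longer passed. In cells without a proliferation gene, Brca1 (0.67), Rad51c (0.54), Brca2 (0.52), Blm (0.49) and Bard1 (0.23) did not pass either, and Rad54l was too low to test.

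Of the 7 end joining genes tested, 1 rose in cycling cells and 0 fell with edgeR or with DESeq2, while at an unadjusted p of 0.05 2 rose and 0 fell, and the median log2 difference was 0.23. Xrcc6 and Xrcc5 encode the Ku70 and Ku80 subunits that cap broken ends. Xrcc6 was at 11.7, 18.5, 16.2, 17.6 and 23.0 CPM in cycling and 7.42, 10.3, 9.10, 11.6 and 12.9 CPM in non-cycling cells, and rose by 0.46 (SE 0.10, edgeR adjusted p = 0.00431). Xrcc5 was at 19.6, 30.4, 22.7, 24.4 and 22.5 CPM in cycling and 11.5, 26.8, 12.8, 16.3 and 17.2 CPM in non-cycling cells, a difference of 0.25 (edgeR adjusted p = 0.0784). Prkdc, the catalytic subunit of DNA-dependent protein kinase, was at 7.95, 9.10, 6.74, 8.03 and 10.7 CPM in cycling and 8.72, 8.21, 4.27, 5.82 and 6.93 CPM in non-cycling cells (0.061). Nhej1 (0.31), a partner of Xrcc4, the nuclease gene Dclre1c (0.23), Xrcc4 (0.13) and its ligase partner Lig4 (-0.32) did not pass either.

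Over all keratinocytes Xrcc5 was at 12.8 CPM in control, 26.4 on day 7, 17.2 on day 14, 17.9 on day 28 and 18.0 on day 60, and in fibroblasts at 9.60, 10.9, 12.1, 12.7 and 14.97 CPM. Xrcc6 was at 8.52, 11.4, 11.4, 13.2 and 15.3 CPM in keratinocytes and 5.79, 7.86, 3.45, 12.4 and 9.59 CPM in fibroblasts. Both Ku genes were at a higher level in keratinocytes in each of the 5 libraries, Xrcc5 by 0.67 (SE 0.17, edgeR adjusted p = 0.00934) and Xrcc6 by 0.61 (SE 0.21, edgeR adjusted p = 0.0324). Xrcc6, at 0.69 without the 28 d (edgeR adjusted p = 0.0522) and 0.66 without the 60 d library (0.06001), no longer passed there. Prkdc was at 9.44, 8.83, 5.21, 6.46 and 7.97 CPM in keratinocytes and 8.38, 9.37, 5.17, 9.80 and 11.1 CPM in fibroblasts, which overlapped. Lig4, the ligase that seals the ends, was at 1.41, 3.24, 1.32, 1.05 and 1.07 CPM in keratinocytes and 1.68, 3.85, 1.72, 2.91 and 7.68 CPM in fibroblasts. Its log2 difference of -1.05 (SE 0.38, edgeR adjusted p = 0.0433) was -0.45 without the 60 d library (edgeR adjusted p = 0.278). It no longer passed there or without control (0.0724), the 14 d (0.0580) or the 28 d library (0.0969), and passed in 4 of 13 alternatives in all. Nhej1 (0.37), Dclre1c (-0.16) and Xrcc4 (-0.29) did not pass between the cell types.

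Base excision and single-strand break repair genes were higher in keratinocytes. Of 8 tested, 6 were higher and 0 lower with edgeR, 0 also at an unadjusted p of 0.05 and with DESeq2, with a median log2 difference of 1.07. Apex1, the endonuclease that cuts at abasic sites, had the most UMIs of all members. It was at 55.1, 67.0, 77.9, 69.4 and 74.5 CPM in keratinocytes and 18.9, 16.6, 20.7, 26.7 and 21.1 CPM in fibroblasts (1.78, SE 0.16, edgeR adjusted p = 4.39e-05). Lig1, the replicative ligase, was at 34.3, 49.8, 60.3, 43.7 and 56.5 CPM in keratinocytes and 10.2, 12.7, 17.2, 15.9 and 19.6 CPM in fibroblasts (1.76, SE 0.13, edgeR adjusted p = 1.99e-05). For Apex1 and Lig1 the lowest keratinocyte value lay above the highest fibroblast value. Parp1, the nick sensor, was at 27.2, 23.1, 27.0, 27.5 and 30.02 CPM in keratinocytes and 33.8, 34.5, 15.5, 33.1 and 21.7 CPM in fibroblasts and did not pass (0.0099). Polb (1.32), Lig3 (1.21), the glycosylase gene Ogg1 (0.92) and Parp2 (0.79) were higher in keratinocytes, and the scaffold gene Xrcc1 did not pass (0.34).

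In cycling keratinocytes 4 of these 8 rose and 2 fell. Lig1 was at 83.7 to 144 CPM in cycling and 19.9 to 31.2 in non-cycling cells and rose by 1.78 (SE 0.09, edgeR adjusted p = 4.26e-07), and Ogg1 (0.98), Parp2 (0.87) and Parp1 (0.69) rose less. Polb, the gap-filling polymerase, fell by 0.53 (SE 0.15, edgeR adjusted p = 0.0169) and Lig3, the partner of Xrcc1, by 0.32 (SE 0.12, edgeR adjusted p = 0.04996). Polb no longer passed without the 7 d (edgeR adjusted p = 0.0745), the 14 d (0.0622) or the 60 d library (0.0643), nor did Lig3 without any library but that of day 14 (0.114 to 0.203). Apex1 differed by 0.060 and Xrcc1 by 0.098 without passing. Rad52, Polb and Lig3 were the 3 members that fell. Without the 60 d library 0 of the 42 members passed as lower with edgeR and 1 did at an unadjusted p of 0.05. The count was 1 without the 7 d, the 14 d or the 28 d library and 1 with DESeq2 over all 5.

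The other 5 members included the largest log2 difference among members in each comparison. Polq, the polymerase of microhomology-mediated end joining, was at 4.84, 4.08, 1.84, 3.05 and 4.02 CPM in cycling and 0.100, 0.05003, 0.186, 0.115 and 0.131 CPM in non-cycling cells (4.79, SE 0.29, edgeR adjusted p = 1.31e-06). Polq had 204 UMIs in keratinocytes of all 5 libraries together, so its non-cycling values rest on few UMIs. Fancd2, which is ubiquitinated at crosslinks, rose by 3.87 and Fanca, of the ligase complex that does this, by 2.75. Msh6, a mismatch sensor, rose by 0.43 but not without the 28 d (edgeR adjusted p = 0.0528) or the 60 d library (0.0594), and Wrn, a helicase, differed by 0.16 without passing. Fancd2 was at 1.36, 1.18, 1.74, 1.57 and 1.41 CPM in keratinocytes and 0.142, 0.187, 0, 0.265 and 0.384 CPM in fibroblasts (2.68, SE 0.36, edgeR adjusted p = 0.00037). Msh6 was at 15.7, 16.7, 10.6, 16.6 and 16.6 CPM in keratinocytes and 4.60, 6.47, 0, 9.53 and 11.9 CPM in fibroblasts (1.29, SE 0.28, edgeR adjusted p = 0.00415). Wrn was at 7.55, 7.34, 5.12, 7.21 and 7.58 CPM in keratinocytes and 7.64, 11.1, 15.5, 14.0 and 13.4 CPM in fibroblasts (-0.65, SE 0.20, edgeR adjusted p = 0.0227), a call lost without the 7 d (0.0635), the 28 d (0.0641) or the 60 d library (0.102) and in 5 of 13 alternatives in all. Fanca (3.11) had 7 fibroblast UMIs in all, and Polq was higher in keratinocytes by 1.54, a call lost without control (edgeR adjusted p = 0.0503) or the 7 d library (0.0851).

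The balance of end joining against homologous recombination differed between cell states within each library. The ratio of their summed UMIs was 2.48 in non-cycling keratinocytes of control, 3.04 on day 7, 2.46 on day 14, 2.59 on day 28 and 2.49 on day 60. In cycling keratinocytes it was 0.477, 0.667, 1.01, 0.839 and 0.619 in the same order. All 5 non-cycling ratios lay above all 5 cycling ratios, and their 95% intervals did not overlap. The capture of a transcript differs between genes, so the ratio is read only as a difference between cells and not as a ratio of molecules. Over all keratinocytes it was 1.25 (1.17 to 1.33), 1.78 (1.64 to 1.92), 1.37 (1.19 to 1.57), 1.49 (1.39 to 1.60) and 1.39 (1.34 to 1.45). With the S100a8-high cluster added it was 2.08 on day 14 and 1.76 on day 28, which made day 14 the highest in place of day 7. Without Xrcc5 and Brca2, the most abundant member of each group, the keratinocyte ratio was 0.990 in control and 0.958 on day 14, below 1.

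**Figure D3:**
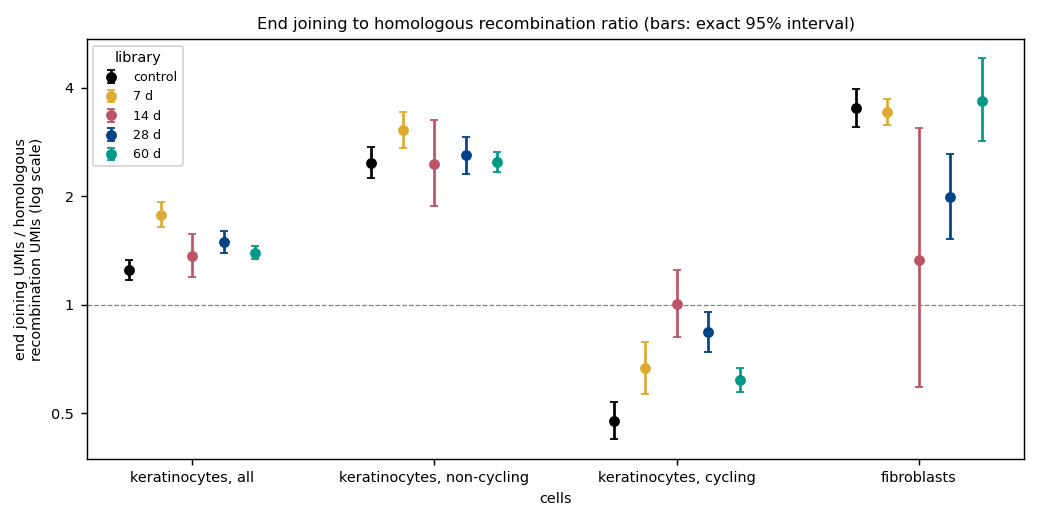
UMIs of end joining genes divided by UMIs of homologous recombination genes (log axis, dashed line at 1) in all, non-cycling and cycling keratinocytes and in fibroblasts, by library, with exact 95% intervals of counting error. Non-cycling keratinocytes lie between 2.46 and 3.04 and cycling ones between 0.477 and 1.01.

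In fibroblasts the ratio was 3.51 (3.101 to 3.97) in control, 3.43 (3.16 to 3.73) on day 7, 1.33 (0.592 to 3.09) on day 14, 1.99 (1.52 to 2.62) on day 28 and 3.68 (2.84 to 4.82) on day 60. It was lowest on days 14 and 28, where the intervals did not reach the control value. Homologous recombination genes were at 9.43 CPM in control fibroblasts, 12.5 on day 7, 20.7 on day 14, 22.2 on day 28 and 14.4 on day 60. On day 14 this was 12 UMIs. The 23 proliferation genes were at 45.6, 41.0, 181, 164 and 101 CPM in the same cells. The 12 keratinocyte markers summed to 1151, 1237, 1878, 3611 and 2435 CPM in fibroblasts, with 7 of 12 above control on day 14, 10 on day 28 and 11 on day 60, and 2 at 0 on day 14, against 46443 to 74199 CPM in keratinocytes. In fibroblasts without a proliferation gene the ratio was 3.68 in control and 2.48 on day 28, and homologous recombination genes were at 8.999 and 16.4 CPM. The part of the markers in the result was not tested.

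Against base excision, end joining was lower in keratinocytes than in fibroblasts. The ratio of end joining to base excision UMIs was 0.193, 0.238, 0.161, 0.191 and 0.195 in keratinocytes of control and of days 7, 14, 28 and 60, and 0.301, 0.354, 0.267, 0.309 and 0.411 in fibroblasts. The fibroblast ratio was above the keratinocyte ratio in each library, and every keratinocyte value was below every fibroblast value. Within keratinocytes the 7 d library had the highest ratio and the 14 d library the lowest. Within fibroblasts the 60 d library had the highest.

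On day 7 the keratinocytes of the irradiated library had more end joining transcripts than those of control, with most of the difference in Xrcc5. The 7 genes summed to 61.3 CPM on day 7 and 39.2 in control, a ratio of 1.56 (95% interval 1.47 to 1.67), and no other role group of keratinocytes was past 1.5-fold on days 7, 14, 28 or 60. The ratio was 1.46 with scaling that left out mitochondrial, ribosomal and the most abundant genes and 1.43 with scaling by the median ratio of genes, both under 1.5. Genes reaching 50 UMIs over a pair of libraries were counted, and a ratio of at least 1.5 in either direction was taken as past the fold. Since a gene can reach 50 UMIs only through the library where it is high, these counts describe the measured genes. On day 7, 9 of 41 measured members were higher and 2 lower in keratinocytes, against 19.2% higher and 11.1% lower of all measured genes. The members' share of higher genes was near that of all genes, and their share of lower genes was below it. In end joining 4 of 7 were higher. Xrcc5 was 2.06-fold control (1.85 to 2.28), at 12.8 CPM in control and 26.4 on day 7, and gave the largest part of the rise in the sum. Lig4 was 2.29-fold (1.68 to 3.13) and Xrcc4 1.89-fold (1.51 to 2.35). Nhej1 was 1.53-fold (1.16 to 2.03), but 1.43-fold and 1.40-fold under the 2 other scalings, whereas Prkdc was at 0.936-fold.

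The end joining level on day 7 was above control in non-cycling keratinocytes, at 59.8 against 35.4 CPM, and in cycling ones, at 75.3 against 50.3 CPM. Of the 7 d keratinocytes, 81.9% were in 1 cluster led by Tgm5, Krt24 and Lhx2, which held 25.7% of the control keratinocytes. Within that cluster, with 1413 cells on day 7 and 1163 in control, end joining genes were at 61.9 and 34.8 CPM, a ratio of 1.78 (1.56 to 2.03). Xrcc5 alone was at 27.3 and 8.37 CPM there, 3.26-fold (2.54 to 4.25), Lig4 was 2.31-fold (1.24 to 4.67) and Nhej1 2.38-fold (1.21 to 5.21), whereas Xrcc4 was 1.21-fold (0.843 to 1.76) and Xrcc6 1.24-fold (0.948 to 1.64). Base excision genes were 1.54-fold (1.45 to 1.64) and homologous recombination genes 1.35-fold (1.12 to 1.63) in the same cluster. The 23 proliferation genes were 2.68-fold (2.42 to 2.98) and the p53 targets 1.66-fold (1.63 to 1.69) there. Over all keratinocytes 10 transcriptional targets of p53 were at 2306 CPM on day 7 and 1051 in control, and 8 fibroblast markers at 2056 and 965 CPM, all 8 above control. Their part in the result was not tested.

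Other members past the fold in keratinocytes on day 7 were Rad51d at 2.27-fold (1.77 to 2.92), Xrcc1 at 1.92-fold (1.77 to 2.09), Atr at 1.86-fold (1.56 to 2.21), Mre11a at 1.71-fold (1.46 to 1.99) and Nbn at 1.70-fold (1.57 to 1.85). The lower members were Chek2 at 0.541-fold (0.414 to 0.699) and Bard1 at 0.618-fold (0.497 to 0.763). Xrcc1 was at 20.3 CPM in control and 39.0 on day 7, then 25.2 on day 14, 26.1 on day 28 and 18.9 on day 60. Rad51d was at 2.19, 4.99, 2.89, 3.04 and 2.64 CPM in the same order. For Xrcc1, Rad51d, Lig4, Xrcc4, Atr and Nbn the 7 d library was the highest of the 5.

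At later times fewer members were past the fold in keratinocytes on the CPM scale. On day 14 2 of 41 were higher and 5 lower, against 13.9% and 37.9% of all measured genes. On day 28 2 of 42 were higher and 2 lower, against 10.1% and 25.7%, and on day 60 5 of 43 and 3, against 9.78% and 29.6%. The members' shares of lower genes were below those of all genes at these 3 times. These counts moved with the scaling and the cell set. With median-ratio scaling 16 were higher and 1 lower on day 14, against 23.1% and 28.0% of all genes, 5 and 2 on day 28, and 10 and 1 on day 60, against 15.9% and 22.5%. With the S100a8-high cluster added, 1 was higher and 17 lower of 42 on day 14, against 13.2% and 47.3%, and 0 and 8 on day 28, against 10.0% and 31.6%. In cells without a proliferation gene 4 were higher and 15 lower of 36 on day 14, against 10.5% and 41.6%. Bard1 was past the fold as lower in all 4 irradiated libraries, the only member to be so, with ratios of 0.618 on day 7, 0.536 on day 14, 0.572 on day 28 and 0.640 on day 60. On day 60 it was 0.702 and 0.725 under the other scalings and no longer past the fold, though below control, and on day 28 it was 0.740 in cells without a proliferation gene. Lig1 was 1.76-fold control on day 14 (1.61 to 1.91), but 1.11-fold with the S100a8-high cluster, and 1.65-fold on day 60 (1.56 to 1.73). Xrcc6 was 1.55-fold on day 28 (1.37 to 1.75), 1.42-fold with the cluster, and 1.80-fold on day 60 (1.63 to 1.996), and Dclre1c 0.584-fold (0.402 to 0.837) and 0.514-fold (0.387 to 0.684) at the same times.

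The remaining members past the fold in keratinocytes were spread over roles. Blm was higher on day 14 (1.52-fold, 1.01 to 2.23) but at 0.819-fold with the S100a8-high cluster, and Prkdc (0.551-fold), Brca1 (0.620-fold), Tp53bp1 (0.623-fold) and Atm (0.658-fold) were lower there. With the cluster these 4 were at 0.377, 0.309, 0.534 and 0.416-fold, and with median-ratio scaling, at 0.668 to 0.797-fold, none was past the fold. Fanca was higher on day 28 (1.73-fold, 1.01 to 3.005, and 1.46-fold with the cluster) and day 60 (2.30-fold, 1.49 to 3.66). Brca2 (1.77-fold, 1.55 to 2.04) and Rad52 (1.69-fold, 1.38 to 2.07) were higher on day 60, and Tp53bp1 was again lower (0.665-fold, 0.587 to 0.754, and 0.754-fold with median-ratio scaling). The share of cycling cells was 8.998% in control, 7.76% on day 7, 21.5% on day 14, 14.9% on day 28 and 11.1% on day 60 of cells with at least 2000 UMIs, and 16.3% on day 14 and 11.9% on day 28 with the S100a8-high cluster. The largest keratinocyte cluster also changed, to 1 led by Mmp13, Col17a1 and Wnt3 on days 14, 28 and 60. That cluster held 48.9%, 36.4% and 34.3% of the keratinocytes at these times. The part of cycling cells and of clusters in these differences was not tested.

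**Figure D4:**
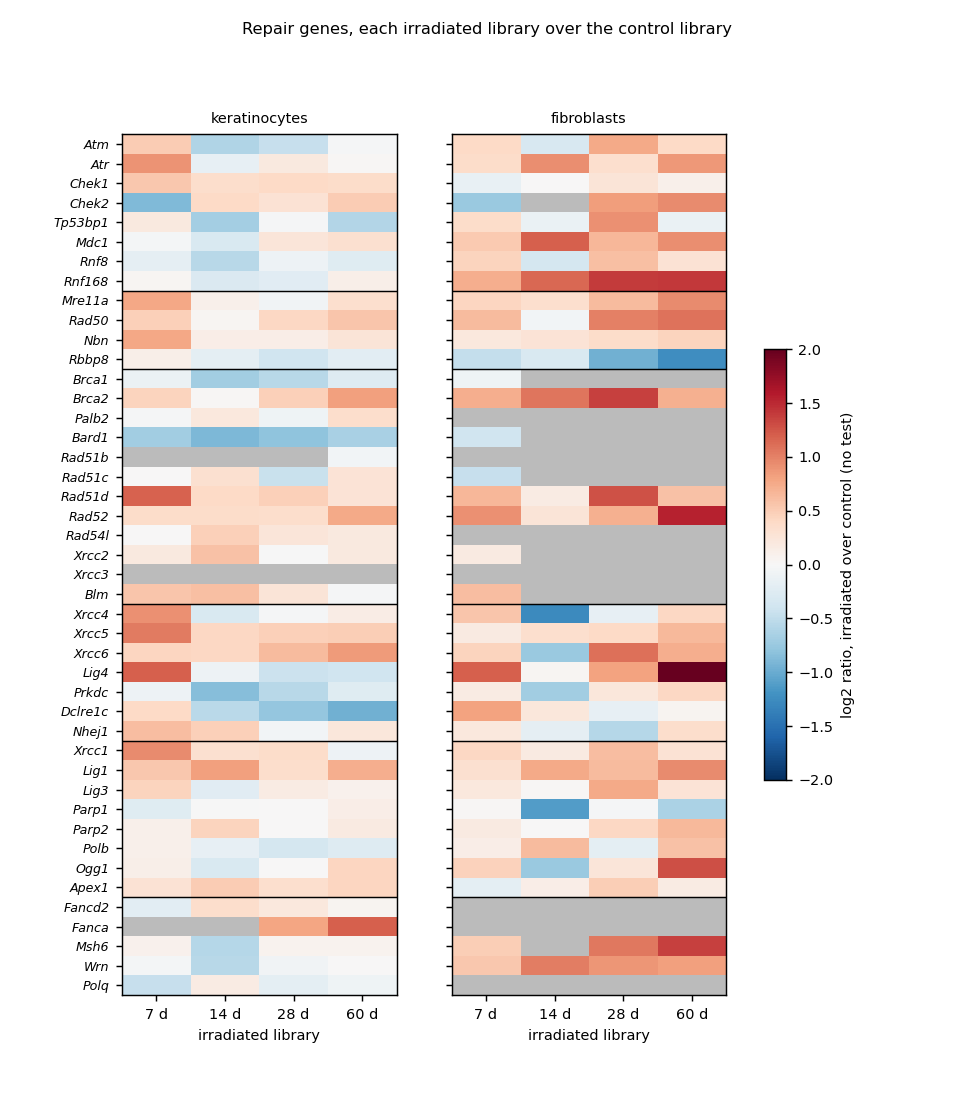
Log2 ratio of each member in each irradiated library over the control library, in keratinocytes and fibroblasts (colour scale from -2 to 2, rows in the order of the role groups). Grey marks members with under 50 UMIs in both libraries together or 0 in the irradiated one. Bard1 is below control at all 4 times in keratinocytes, and Rnf168 is above control at all 4 in fibroblasts.

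In fibroblasts 8 of 37 measured members were higher and 1 lower on day 7, against 16.3% and 6.51% of all measured genes. On day 14 7 of 31 were higher and 6 lower, against 21.1% and 25.9%. On day 28 18 of 32 were higher and 1 lower, against 29.9% and 12.2%, and on day 60 18 of 32 and 2, against 30.3% and 13.3%. The median log2 ratio of the measured members was 0.37, 0.085, 0.63 and 0.61, and that of all measured genes 0.12, 0.0075, 0.23 and 0.25. With scaling by the median ratio of genes, levels moved by -0.12, -0.0075, -0.23 and -0.25 on days 7, 14, 28 and 60 in fibroblasts and by -0.13, 0.28, 0.16 and 0.18 in keratinocytes, so the fibroblast ratios below are smaller on that scale. With it 5 members were higher and 2 lower on day 7, against 11.7% and 9.21% of all genes, 9 and 2 on day 28, against 20.6% and 18.7%, and 11 and 2 on day 60, against 19.4% and 20.5%. When the marker gate was applied to each cell, 12 of 31 were higher and 2 lower on day 28, against 26.6% and 13.9% of all genes. On day 60 the counts were 14 and 2, against 29.7% and 13.9%. For cells without a proliferation gene they were 12 and 2 of 31 on day 28, against 28.1% and 13.3%. On day 60 they were 15 and 1, against 29.8% and 13.3%. The largest fibroblast cluster was led by Thbs4, Cxcl3 and Tnfaip6 in control and by Abca8a, Cxcl9 and Clec3b in the 7 d and 60 d libraries. In the 14 d library it was led by Pla2g2a, Mup4 and Ccn5, and in the 28 d library by Slc26a7, Igfbp3 and Edn3. It held 29.2% to 36.6% of the fibroblasts of a library. The median fibroblast had 10929.5 UMIs in control, 8418 on day 7, 5417.5 on day 14, 3742.5 on day 28 and 6443 on day 60. The part of depth and of clusters in the fibroblast ratios was not tested.

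Rnf168, which spreads the ubiquitin mark that recruits Tp53bp1, was at 5.45 CPM in control fibroblasts, 8.98 on day 7, 12.1 on day 14, 14.3 on day 28 and 14.6 on day 60. The ratio to control was 1.65 (1.39 to 1.95), 2.21 (0.879 to 4.65), 2.62 (1.90 to 3.56) and 2.67 (2.02 to 3.51). Rnf168 in keratinocytes stayed between 7.19 and 9.55 CPM. Brca2 was the other member past the fold at all 4 times in fibroblasts, with ratios of 1.65 (1.21 to 2.27), 2.09 (0.248 to 7.92), 2.57 (1.38 to 4.54) and 1.63 (0.840 to 2.96), of which that of day 14 rests on 2 UMIs and that of day 60 was 1.37 with median-ratio scaling. Lig4 was 2.30-fold (1.72 to 3.12) on day 7 and 4.58-fold (2.99 to 6.96) on day 60, on 40 UMIs. Rad50 was 1.56-fold (1.42 to 1.71) on day 7 (1.44-fold with median-ratio scaling), 2.003-fold (1.65 to 2.41) on day 28 and 2.11-fold (1.79 to 2.48) on day 60.

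Rbbp8 went the other way and was the member with the lowest ratio in fibroblasts on days 28 and 60. It was 0.513-fold control (0.415 to 0.629) on day 28 and 0.421-fold (0.345 to 0.510) on day 60. In endothelial cells Rbbp8 was at 144 CPM in control, 111 on day 7, 86.8 on day 14, 103 on day 28 and 73.2 on day 60, and in mural cells at 99.4, 77.6, 91.0, 40.6 and 30.7 CPM. In mural cells the ratio was 0.408 (0.322 to 0.514) on day 28 and 0.309 (0.239 to 0.396) on day 60, and in endothelial cells 0.510 (0.332 to 0.757) on day 60. In mononuclear phagocytes Rbbp8 was at 66.3, 66.1, 91.7, 54.7 and 25.5 CPM. The 60 d library was thus the lowest in fibroblasts, mural cells, endothelial cells and phagocytes, whereas in keratinocytes and Schwann cells the 28 d library was the lowest, at 28.1 and 41.9 CPM.

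The other high and low members of fibroblasts differed by time. On day 7 Rad52 (1.88-fold, 1.36 to 2.62) and Dclre1c (1.75-fold, 1.27 to 2.44) were higher and Chek2 (0.598-fold, 0.380 to 0.939) lower. On day 14 Parp1 was the one member past the fold whose interval left out 1 (0.459-fold, 0.210 to 0.875), on 9 UMIs, and Msh6 had 0 UMIs. On day 28 Rad51d (2.42-fold, 1.24 to 4.41), Xrcc6 (2.15-fold, 1.53 to 2.96) and Msh6 (2.07-fold, 1.40 to 2.99) were higher. On day 60 Rad52 (2.92-fold, 1.68 to 4.89), Msh6 (2.59-fold, 1.90 to 3.49) and Ogg1 (2.45-fold, 1.64 to 3.60) were higher and Parp1 (0.642-fold, 0.524 to 0.779) lower. Of 30 members measured at all times in both cell types, 0 moved in opposite directions in them at every time.

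Xrcc5 on day 7 was also described in mural cells, endothelial cells and mononuclear phagocytes. Its values in Schwann cells and skeletal muscle cells are not given. In mural cells it was at 6.54 CPM in control and 16.1 on day 7 (2.46-fold, 1.46 to 4.33), and in endothelial cells at 6.57 and 16.6 CPM (2.52-fold, 1.14 to 6.56), on 7 control UMIs. Endothelial Xrcc5 was also at 21.1 CPM in the 28 d and 31.7 in the 60 d library, on 9 and 13 UMIs. In fibroblasts it was at 9.60 and 10.9 CPM, and in mononuclear phagocytes 6 UMIs on day 7 stood against 10 in control. Summed end joining genes were at 42.3 to 55.9 CPM in mural cells, 35.5 to 75.0 in endothelial cells, 60.0 to 87.7 in Schwann cells and 30.6 to 41.8 in mononuclear phagocytes over the 5 libraries. Homologous recombination genes were at 20.9 to 29.9, 15.02 to 30.5, 20.5 to 26.1 and 14.1 to 18.6 CPM in the same cell types. T and NK cells are not described, since 742 of their cells carried keratinocyte markers by the cell-wise gate and 803 their own.

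Repair genes outside the 44 were counted in the same tests by route. Of all genes tested, 15.9% rose and 23.8% fell in cycling cells, and 30.2% were higher and 29.5% lower in keratinocytes. Of 17 further homologous recombination genes, 10 of 14 tested rose in cycling keratinocytes, and 9 of 15 were higher and 1 lower in keratinocytes than in fibroblasts. The most abundant of them, Sfr1 (-0.19) and Swi5 (0.18), did not pass in cycling cells. Of 12 further end joining genes, 2 of 10 tested rose in cycling cells and 1 fell, and 2 were higher and 1 lower in keratinocytes. Paxx, a partner of Ku, fell by 0.63 in cycling cells (SE 0.09, edgeR adjusted p = 0.000328) and Rif1 rose by 0.53. Of 13 further base excision genes, 3 of 11 rose and 2 fell in cycling cells, with Pcna, the replication clamp, at 0.87 and the glycosylase gene Tdg at 0.38, and 5 were higher and 1 lower in keratinocytes.

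The remaining lists covered neighbouring routes. Of 12 further Fanconi genes, 7 of 10 rose in cycling cells, where the deubiquitinase gene Usp1 was at 1.57 and Fance at -0.045, and 4 of 11 were higher in keratinocytes. Of 13 further damage chromatin genes, 7 of 12 rose in cycling cells, with H2afx, the histone phosphorylated at breaks, at 1.99 and Brcc3 at -0.026, and 6 were higher and 1 lower in keratinocytes. Of 16 nucleotide excision and translesion genes, 2 of 14 rose and 3 fell in cycling cells, and 3 of 15 were higher and 2 lower in keratinocytes. Each of these shares was below that of all genes. Ddb1 and Ercc1, the most abundant of these, passed neither test.

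Some members share their place in the genome with another gene. In RefSeq 14 of the 44 overlap a coding gene on the opposite strand (Tp53bp1, Mre11a, Brca2, Rad52, Rad54l, Xrcc3, Nhej1, Lig1, Lig3, Parp2, Ogg1, Fancd2, Fanca and Msh6), and 0 overlap one on their own strand. Whether the counting used strand is not given in the sources used here.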

How the data were processed

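Raw UMI counts per barcode and gene, deposited by the authors with no normalization, were used; the submitters' processing notes name the Rnor_6.0 build and the tools Seurat 3.1.1, STAR and Cell Ranger 5.0.0. Barcodes with at least 500 UMIs, 300 genes and at most 20% mitochondrial UMIs were kept, and the 6% with the highest doublet score per library, against 2 simulated doublets per barcode, were removed. Counts scaled to 10000 per cell, 3000 variable genes, 40 principal components and 20 neighbours gave Leiden clusters (leidenalg 0.10.2, resolution 1), without integration. A cluster was named when at least 3 markers were raised by a log2 ratio of at least 1 (prior 10 CPM) and seen in 10% of its cells. Counts were summed per cell type and library. Cell types and cell states were tested with edgeR 4.0.16 (R 4.3.3, quasi-likelihood, library as block, Benjamini-Hochberg over all genes tested), with DESeq2 1.42.0 as an alternative, and the SE was derived from the fold change and the F statistic. The tests were run on simulated counts drawn without differences between libraries, so that check did not cover the library block. Sums carry exact Poisson and ratios exact conditional binomial 95% intervals, which cover counting error only. A ratio between libraries needed 50 UMIs in both together and was taken as past the fold at 1.5. The total counts per library ran from 70073362 to 139566348 UMIs.

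The members, role groups and lists were chosen with earlier results of these data known. Named genes are the 3 members with the most UMIs per role, up to 5 highest and 5 lowest members past the fold with an interval that leaves out 1 per comparison, up to 10 highest and 10 lowest by edgeR, and the 2 most abundant genes of each other list. One further list, of mismatch repair genes, is not reported here. Members outside these rules are named to account for all 44, and the values of Rbbp8 and Xrcc5 in the smaller cell types were chosen after they were seen. The S100a8-high cluster and the 7 d cluster were added as alternatives after the data were seen, as were the other scalings and cell sets for single members and their counts. Python 3.11.15 was used for the rest.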

Additional observations from a re-analysis of the deposited data

How the results depend on the processing

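No paired analysis was possible because the labels give no replicate numbers and each group holds 1 library. This applies to irradiated against control libraries, since the tests between cell types and cell states had the library as a block. All values rest on 5 libraries, with 90 fibroblasts at 14 d, and members under 50 UMIs in a pair of libraries give no ratio. Between keratinocytes and fibroblasts 28 members were called, and 40 of their 360 values under alternatives lost the call, from 13 members. Between cycling states 29 were called, and 28 of 435 values lost it, all from Lig3, Rad52, Polb and Msh6. The cause was not tested for the values below, except where cells or genes were left out by construction. Values without proliferating cells are those of cells without a proliferation gene detected after thinning. Cells under 2000 UMIs were left out of them too, so the part of proliferation alone was not tested.

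Between keratinocytes and fibroblasts, 12 of 38 members instead of 25 of 42 were higher without proliferating cells, where 29.5% of all genes were higher, and 1 instead of 3 was lower with doublets kept; leaving out 1 library gave 21 to 25 higher and 1 to 2 lower, 1 without the 28 d and 1 without the 60 d library. Between cycling states, 1 instead of 3 was lower with DESeq2, with doublets kept, with the strict cell filter, with at least 5 gate genes and within basal-gated cells. Leaving out 1 library gave 25 to 27 higher and 0 to 2 lower, 0 without the 60 d library (edgeR; 1 at an unadjusted p of 0.05) and 1 without the 7 d, the 14 d or the 28 d library.

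The log2 ratio of the members' sum over control in keratinocytes at 7 d was 0.42 without proliferating cells, 0.25 with scaling that left out mitochondrial, ribosomal and the top 50 genes, 0.23 with median-ratio scaling and 0.41 within the cluster of most 7 d keratinocytes. At 14 d it was -0.32 with the cell-wise marker gate, -0.14 without proliferating cells, -0.34 with the S100a8-high cluster, 0.18 and 0.41 under the 2 scalings and 0.077 without Apex1. At 28 d it was -0.036, 0.066, -0.040, 0.21, 0.29 and 0.10 in the same order. At 60 d it was 0.20 without proliferating cells, 0.37 and 0.42 under the scalings and 0.21 without Apex1. In fibroblasts it was 0.085 and 0.013 at 7 d under the scalings, 0.29 without proliferating cells and 0.16 with median-ratio scaling at 28 d, and 0.043 with median-ratio scaling at 60 d.

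Among role groups, base excision in keratinocytes at 14 d reversed to -0.13 with the cell-wise gate and -0.14 with the S100a8-high cluster, signalling at 28 d to -0.017 and -0.027, and base excision in fibroblasts at 60 d to -0.017 with median-ratio scaling. Of 48 role comparisons 0 were lower by the fold, against 3 with the cell-wise gate and 1 without proliferating cells. The ratio of end joining to homologous recombination in keratinocytes without proliferating cells was 2.48, 3.04, 2.46, 2.59 and 2.49 in control and at 7 d, 14 d, 28 d and 60 d. Without Xrcc5 and Brca2 it was 0.990, 1.25, 0.958, 1.15 and 1.16, and 3.01 in control fibroblasts. It was 2.06 at 14 d and 1.79 at 28 d with the cell-wise gate, 2.08 and 1.76 with the S100a8-high cluster, and in fibroblasts 2.89 in control and 2.69 at 60 d with doublets kept.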
